A study of Mus musculus with 8 samples.

Results

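The 10 genes described here encode the proteins by which a cardiomyocyte releases calcium from the sarcoplasmic reticulum and clears it again: Ryr2, Casq2, Casq1, Trdn, Hrc, Atp2a2, Pln, Slc8a1, Jph2 and Bin1. They were taken by name for their function, and the rule used none of their values. Earlier results of these data were known when they were chosen. Each was found by its gene symbol among the 80155 loci with a value in every heart, of which 39614 carry a symbol, and where a symbol had several loci the locus with the highest mean was used. RNA-seq, which measures RNA by sequencing short fragments of it, was made from hearts of male Hsd:ICR(CD-1) mice without any genetic change or treatment named in the labels. The 8 hearts came from 4 mice at postnatal day 1 (P1) and 4 other mice at postnatal day 7 (P7), with 1 library of total RNA depleted of ribosomal RNA per mouse. The atrial appendages had been removed, so what was sequenced is a whole tissue of ventricles, remaining atria, vessels, fibroblasts and blood. The comparison asks how the RNA levels of these genes differ between the 2 stages.

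In a heart muscle cell, an action potential opens calcium channels in the surface membrane and its inward folds, the T-tubules, and the entering calcium opens ryanodine receptors in the facing membrane of the sarcoplasmic reticulum. The released calcium triggers contraction. The SERCA pump then returns calcium to the reticulum, under the brake of phospholamban, while the sodium-calcium exchanger carries the remainder out of the cell, and inside the reticulum calsequestrin binds the stored calcium and junctional proteins tie that store to the release channel. In newborn rodents the T-tubules are not yet formed, and cardiomyocytes rely on the exchanger and on entry through the surface membrane more than adult cells do.

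Levels are given as FPKM, which counts the fragments of a locus per unit of transcript length and of the mapped library. Levels of different genes can thus be set side by side per length. Differences are log2 fold changes of FPKM + 1 with their standard errors, from a fit with limma across 43172 loci that reached 1 FPKM in at least 1 heart. A gene was called higher or lower in P7 where its p, adjusted over all loci after Benjamini and Hochberg, was under 0.05 and its mean FPKM differed at least 1.5-fold, the thresholds of the study's methods. All 10 genes passed the filter on low values, and Bin1, the weakest, was at 1.94 FPKM or more in every heart. The fold changes of weak genes are understated on this scale. The files hold no fragment counts, which leaves the depth of single values unknown, and no counting interval is given.

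For orientation at the start sites, the 250 bases before the RefSeq start of a gene (GRCm38.p6) were searched on both strands for short motifs. Such a window was found for 7 of the 10 genes and not for Atp2a2, Trdn or Bin1. The windows of Casq1, Jph2 and Hrc are shown because these 3 genes were called between the stages, and that of Casq2 because it is the cardiac paralog of Casq1. Casq1 lies on the minus strand with the window chr1:172219896-172220145, Jph2 on the minus strand with chr2:163397994-163398243, Hrc on the plus strand with chr7:45335019-45335268 and Casq2 on the plus strand with chr3:102086165-102086414. Capitals mark the E-box CAGCTG in the first 3 and a match to the MEF2 site in Casq2. All are written 5′ to 3′ along the gene.
Casq1: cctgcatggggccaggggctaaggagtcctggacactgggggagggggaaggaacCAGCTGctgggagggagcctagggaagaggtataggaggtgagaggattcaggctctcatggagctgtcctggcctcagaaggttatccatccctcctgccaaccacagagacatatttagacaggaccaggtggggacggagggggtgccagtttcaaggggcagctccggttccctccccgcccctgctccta
Jph2: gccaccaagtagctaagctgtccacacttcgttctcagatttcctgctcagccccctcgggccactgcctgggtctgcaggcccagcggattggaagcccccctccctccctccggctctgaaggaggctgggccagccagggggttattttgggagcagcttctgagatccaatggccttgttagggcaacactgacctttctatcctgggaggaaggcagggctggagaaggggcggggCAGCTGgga
Hrc: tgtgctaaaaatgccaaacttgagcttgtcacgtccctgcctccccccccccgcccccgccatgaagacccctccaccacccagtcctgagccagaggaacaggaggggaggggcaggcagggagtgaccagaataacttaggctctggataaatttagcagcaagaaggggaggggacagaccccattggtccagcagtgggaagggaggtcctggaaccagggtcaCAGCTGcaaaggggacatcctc
Casq2: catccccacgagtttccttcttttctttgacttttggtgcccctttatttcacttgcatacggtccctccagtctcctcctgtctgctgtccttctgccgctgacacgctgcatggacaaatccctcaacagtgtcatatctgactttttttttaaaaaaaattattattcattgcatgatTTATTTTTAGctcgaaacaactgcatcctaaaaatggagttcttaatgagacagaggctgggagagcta

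CAGCTG occurred once in each of the windows of Casq1, Jph2 and Hrc and in none of the other 4. Its first base stood at -195 in Casq1, at -9 in Jph2 and at -22 in Hrc, counted back from the start. Of all 32851 RefSeq windows of this length, 13.0% hold CAGCTG. Casq1 was lower in P7 while Jph2 and Hrc were higher, so the genes with this motif did not share a direction. GGGCGG, the core of a GC box, was in the same 3 windows and is in 32.7% of all. The MEF2 site matched only Casq2 and 2.92% of all windows, TATAAA only Pln and 12.4%, and AGGTCA Jph2 and Ryr2 and 14.0%. GATAA was in Casq1, Hrc, Pln and Slc8a1 and in 22.6% of all windows, and the general E-box CANNTG, which includes CAGCTG, was in all 7 and in 66.2%. CATTCC (12.6% of all windows) and the CArG box (1.47%) matched none of the 7. A match is a description of these letters only.

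Of the 10 genes, 4 were called: Jph2, Hrc and Bin1 were higher in P7 and Casq1 was lower. Among the 17960 tested loci with a symbol, 8.14% were called, 7.74% higher and 0.401% lower, and among all 43172 tested loci 3.82%. The other 6 genes, among them the release channel Ryr2, the pump Atp2a2 and its brake Pln, did not pass. Every P7 heart lay above every P1 heart for 4 genes (Atp2a2, Jph2, Hrc and Bin1) and below for 2 (Casq1 and Slc8a1), beside 17.3% and 2.69% of the annotated loci. The median log2 fold change of the 10 genes was 0.19, and that of all tested annotated loci was also 0.19. Median-ratio scaling of the hearts moved the latter to 0.00213 and the calls among annotated loci from 1390 higher and 72 lower to 1388 higher and 621 lower, and it added Slc8a1 to the called genes. In bulk tissue, fewer cells of a type and less RNA per cell cannot be told apart.

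These calls were sensitive to single hearts. Without 1 heart, 0 to 4 of the 10 genes were called by limma. The count was 0 without P1 replicate 2, with 5 genes at an unadjusted p under 0.05, and 1 (Casq1) without P7 replicate 3. It was 2 (Casq1 and Bin1) without replicate 1 or 3 of P1 or replicate 1 or 4 of P7. It was 3 without P7 replicate 2 and 4 without P1 replicate 4. Among annotated loci, 167 of 17856 were called without P1 replicate 2 and 2835 of 17671 without P1 replicate 4. Without P7 replicate 3 it was 278 of 17771. After a correction of each heart for the GC content of the transcripts, Casq1 alone was called, beside 408 of 17960 annotated loci.

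**Figure D1:**
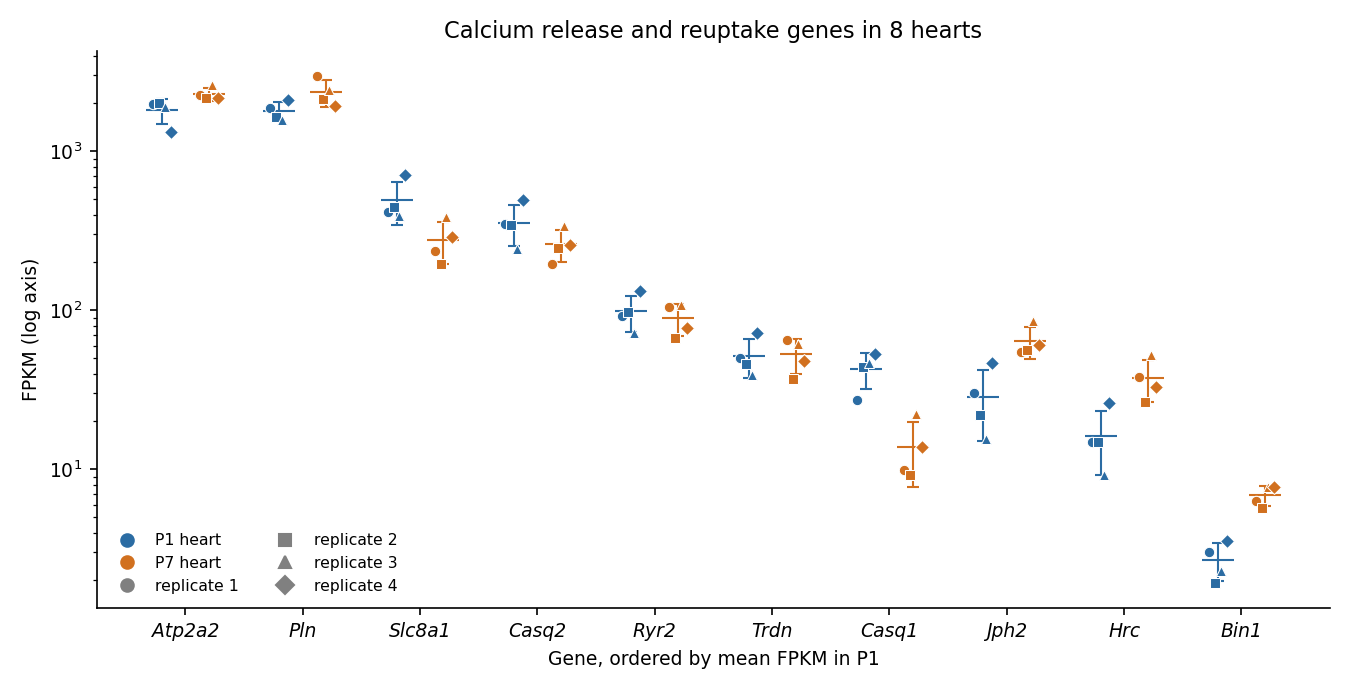
FPKM (log axis) of each of the 10 genes in every heart, with genes ordered by their mean in P1, blue for P1 and orange for P7, and marker shapes for the replicate numbers. Horizontal lines are means and bars are SD over 4 hearts; Casq1 and Slc8a1 show all P7 hearts below the P1 hearts, and Atp2a2, Jph2, Hrc and Bin1 all above.

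Atp2a2, Pln, Slc8a1, Casq2 and Ryr2 had the highest levels at both stages. In P1 the means ran from Atp2a2 (1806) and Pln (1800.3) over Slc8a1 (490.4), Casq2 (356), Ryr2 (98.3), Trdn (51.8), Casq1 (42.9), Jph2 (28.5) and Hrc (16.3) to Bin1 (2.70). Neighbours in this order whose hearts did not overlap were Pln and Slc8a1, Casq2 and Ryr2, and Hrc and Bin1, while all other neighbours overlapped. In P7 Pln (2362) and Atp2a2 (2295) again led with overlapping hearts. Slc8a1 (278) and Casq2 (259.7) overlapped, Ryr2 (89.3) stood apart below them, and Jph2 (64.2), Trdn (52.7) and Hrc (37.5) followed with overlap between Ryr2 and Jph2 and down to Hrc. Casq1 (13.7) and Bin1 (6.88) each stood apart at the end. Casq1 thus moved from rank 7 to rank 9 and Jph2 from rank 8 to rank 6. Atp2a2 was above Pln in 3 of 4 P1 hearts, and Pln above Atp2a2 in 1 of 4 P7 hearts.

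Ryr2 encodes the cardiac ryanodine receptor, the channel through which the reticulum releases calcium, and its locus spans chr13:11553103-12106945. Its FPKM was 92.4, 97.0, 71.8 and 131.9 in P1 replicates 1 to 4 and 105, 66.8, 108.7 and 76.8 in P7 replicates 1 to 4. The hearts of the stages overlapped, with the highest of all 8 in P1. The mean was 98.3 in P1 (SD 25.0, n = 4) and 89.3 in P7 (SD 20.7, n = 4), for a log2 fold change of -0.13 ± 0.24 (SE, adjusted p = 0.744 by limma). The sign turned without P1 replicate 4, to 0.02, and without P7 replicates 2 and 4 together, to 0.15. The loci whose course over the 8 hearts was most like that of Ryr2, by the mean absolute difference of centred log2 values among 9253 loci, were Igf2r (0.0593), Usp7 (0.0597) and Ppp2r3c (0.0600).

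Calsequestrin buffers calcium inside the reticulum, and its 2 paralogs fell on different sides of the call. Casq2, the cardiac form (chr3:102086415-102146514), was at 348, 342, 243 and 491 FPKM in P1 and at 195, 247, 340.1 and 256 in P7. The stages overlapped through P1 replicate 3 alone, and all 4 P7 hearts were below the other 3 P1 hearts. Its mean ± SD over 4 hearts was 356 ± 102 in P1 and 259.7 ± 59.9 in P7, with a log2 fold change of -0.44 ± 0.25 (SE, adjusted p = 0.369 by limma).

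Casq1, known as the form of fast skeletal muscle (chr1:172209894-172220197), was at 27.3, 44.3, 46.8 and 53.3 FPKM in P1 and at 9.90, 9.14, 22.2 and 13.7 in P7. No P7 heart reached the lowest P1 heart. The mean fell, with the SD over 4 hearts, from 42.9 ± 11.1 to 13.7 ± 5.99, 3.12-fold lower in P7, with a log2 fold change of -1.61 ± 0.28 (SE, adjusted p = 0.0142 by limma). The call was lost without P1 replicate 2, at a limma adjusted p of 0.0529, with the log2 fold change at -1.59. Under GC correction the log2 fold change was -1.69 (limma adjusted p = 0.0199). An antisense gene at this locus, Gm17224, was at 0.162 to 0.905 FPKM in P1 and 0.171 to 0.639 in P7, and whether strand was used in counting is not stated in the sources used here.

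Since Casq1 is best known from skeletal muscle, 15 markers of that tissue were read in the same hearts. Their summed FPKM ranged from 9.15 to 15.6 at P1 and from 7.25 to 13.2 at P7, and these ranges overlapped. Of the 15, 5 reached 1 FPKM in a heart and 7 were at 0 in at least 1 heart, among them the fast myosin Myh4 (at most 0.0229), Tnnc2 (at most 0.273), Actn3 (at most 0.161) and Myod1 (at most 0.0779). Casq1 was above the highest value of any of the 15, 5.96 for Tnni2, in all 8 hearts. Of the 5 tested, Pvalb fell from 3.66 ± 1.09 to 0.454 ± 0.307 (SD, n = 4 each, limma adjusted p = 0.00553). Mybpc2 rose from 0.505 ± 0.319 to 2.04 ± 0.972 (SD, n = 4 each, limma adjusted p = 0.0445). Mylpf (log2 fold change -0.38), Tnnt3 (-0.36) and Tnni2 (0.35) overlapped between stages and were not called. The median log2 fold change of the 5 was -0.36, beside 0.19 for all tested annotated loci. The part of skeletal muscle RNA in the Casq1 difference was not tested. The loci with the course most like that of Casq1 were Idi1 (mean absolute log2 difference 0.291), Bex4 (0.306) and Stbd1 (0.345). These differences are larger than those found for Ryr2. The measure grows with how much a gene itself varies, so it cannot compare likeness between Casq1 and Ryr2.

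Trdn encodes triadin, which anchors calsequestrin to the ryanodine receptor. Its FPKM was 49.9, 46.0, 39.2 and 72.0 in P1 and 64.9, 36.7, 61.4 and 47.9 in P7, and the stages overlapped throughout. Its average and SD over 4 hearts were 51.8 ± 14.2 in P1 and 52.7 ± 13.0 in P7, a log2 fold change of 0.03 ± 0.24 (SE, adjusted p = 0.951 by limma) whose sign turned to -0.21 under median-ratio scaling and under quantile normalization. It was also negative without P1 replicate 2 (-0.02), P1 replicate 3 (-0.09), P7 replicate 1 (-0.08) or P7 replicate 3 (-0.06). The files list 2 loci with this symbol at the same position (chr10:33083212-33476709), and the other one was at 18.5 to 28.3 in P1 and 17.9 to 34.0 in P7, so how fragments were divided between them is uncertain.

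Hrc encodes the histidine-rich calcium-binding protein of the reticulum, a partner of triadin and of the pump (chr7:45335290-45338973). Its FPKM was 14.8, 14.9, 9.26 and 26.0 in P1 and 38.2, 26.4, 52.5 and 33.1 in P7. The stages did not overlap, but P1 replicate 4 was only just below the lowest P7 heart, replicate 2. The mean ± SD over 4 hearts rose from 16.3 ± 7.03 to 37.5 ± 11.1, a ratio of 2.31 and a log2 fold change of 1.20 ± 0.29 (SE, adjusted p = 0.0398 by limma). Its adjusted p lay between 0.0684 and 0.114 without P1 replicate 1, 2 or 3 or P7 replicate 1, 3 or 4, and at 0.0952 under GC correction, where the log2 fold change was 1.03.

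Atp2a2 encodes SERCA2, the pump that refills the reticulum, and led the 10 genes in P1. Its FPKM was 1969, 2023, 1908 and 1324 in P1 and 2254, 2151, 2603 and 2169.8 in P7. All P7 hearts were above all P1 hearts, with P1 replicate 4 far below its group. The mean ± SD over 4 hearts was 1806 ± 325 in P1 and 2295 ± 211 in P7, a ratio of 1.27 and a log2 fold change of 0.36 ± 0.23 (SE, adjusted p = 0.410 by limma), so the gene was not called. Its locus (chr5:122421693-122502225) includes a stretch of the neighbouring gene Anapc7, which was at 3.97 to 7.44 FPKM in P1 and 4.26 to 6.91 in P7. The loci with the most similar course were Cd63 (mean absolute log2 difference 0.0631), Gstp1 (0.0691) and a locus named for both Mir686 and Psmb5 (0.0709).

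Pln encodes phospholamban, the small membrane protein that holds SERCA2 back until it is phosphorylated. Its FPKM was 1879.5, 1639, 1580.2 and 2102 in P1 and 2970.3, 2120.5, 2436 and 1922 in P7. The highest P1 heart, replicate 4, was above the lowest P7 heart, also a replicate 4, and the other hearts were ordered by stage. Pln averaged, with the SD over 4 hearts, 1800.3 ± 239 in P1 and 2362 ± 457 in P7, a log2 fold change of 0.38 ± 0.24 (SE, adjusted p = 0.395 by limma). Under GC correction the log2 fold change was 0.67 (limma adjusted p = 0.194). The locus of the files (chr10:53278081-53379851) spans 101771 bases, against 8321 of the gene in the annotation, and lies over Cep85l on the opposite strand, a symbol carried by 0 loci of the files. A separate locus at the same position, Gm9766, was at 9.90 to 16.1 FPKM in P1 and 11.5 to 17.5 in P7. How much of the Pln value came from Cep85l or Gm9766 was not tested.

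Slc8a1 encodes the sodium-calcium exchanger of the surface membrane (chr17:81364983-81738992). Its FPKM was 415, 444, 394 and 708 in P1 and 237, 196, 387 and 289.9 in P7. Every P7 heart was below every P1 heart, although P7 replicate 3 came close to P1 replicate 3. Slc8a1 averaged, with the SD over 4 hearts, 490.4 ± 147 in P1 and 278 ± 82.6 in P7, a ratio of 1.77 between P1 and P7 and a log2 fold change of -0.82 (SE 0.27, unadjusted p = 0.00883, adjusted p = 0.116 by limma). It was therefore not called, but it was called lower under median-ratio scaling (limma adjusted p = 0.0126), quantile normalization (0.0349) and a filter of 1 FPKM in every heart (0.0368). Under GC correction the log2 fold change was smaller, at -0.54 (limma adjusted p = 0.338). Inside its span the files list 10 further loci without a symbol, whose summed FPKM was 1512, 1500, 1110 and 1880 in P1 and 639.9, 594, 1233 and 940.3 in P7. Whether these loci are parts of the Slc8a1 transcript was not tested.

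Jph2 encodes junctophilin 2, which bridges the T-tubule and the reticulum (chr2:163332028-163398095). Its FPKM was 29.998, 21.9, 15.5 and 46.7 in P1 and 54.3, 56.0, 86.1 and 60.2 in P7. The stages were apart, and the P7 hearts other than replicate 3 lay close together. The mean ± SD over 4 hearts rose from 28.5 ± 13.5 to 64.2 ± 14.8, a ratio of 2.25 and a log2 fold change of 1.23 ± 0.30 (SE, adjusted p = 0.0396 by limma). The transcript of Jph2 has the highest GC content of the 10 genes, 61.8%, and under GC correction its log2 fold change was 0.76 with a limma adjusted p of 0.246. Leaving out any 1 heart but P1 replicate 4 put its adjusted p between 0.0584 and 0.128.

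Bin1 encodes amphiphysin 2, a membrane-bending protein of T-tubules (chr18:32359057-32435997), and was the weakest of the 10 genes at both stages. Its FPKM was 3.02, 1.94, 2.29 and 3.55 in P1 and 6.30, 5.75, 7.77 and 7.69 in P7. The stages were well separated, with the lowest P7 heart at 5.75 and the highest P1 heart at 3.55. Bin1 rose in the mean ± SD over 4 hearts from 2.70 ± 0.72 to 6.88 ± 1.01, a ratio of 2.55 and a log2 fold change of 1.10 ± 0.20 (SE, adjusted p = 0.0150 by limma). The call was lost without P1 replicate 2 (limma adjusted p = 0.0666), without P7 replicate 3 (0.0540) and under GC correction (0.0607, with a log2 fold change of 0.82).

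**Figure D2:**
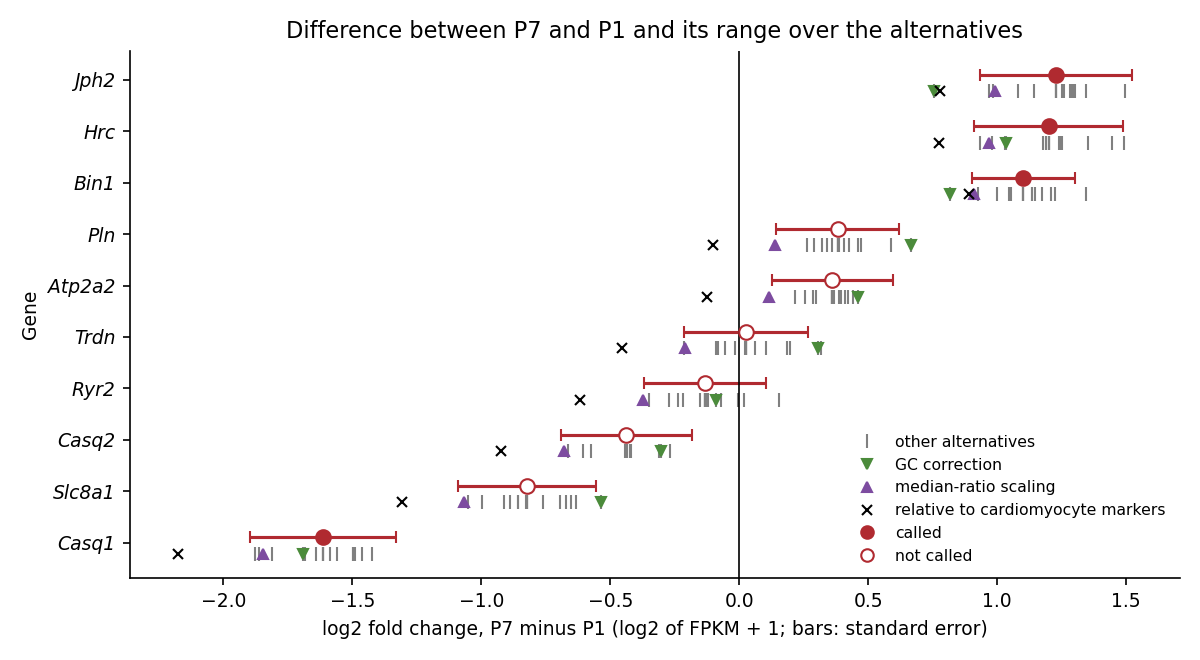
Log2 fold change of P7 minus P1, on the log2(FPKM + 1) scale, for each gene, with the standard error as a bar and filled circles for called genes. Marks below each circle give the same value under the other settings tried, with triangles for GC correction and median-ratio scaling and a cross for values relative to cardiomyocyte markers; the signs of Casq1, Slc8a1, Casq2, Jph2, Hrc and Bin1 are the same in all of them.

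Ratios between genes within a heart do not depend on how that heart was scaled. Each of 4 ratios was compared between stages with an exact two-sided permutation test of its mean log2 value, whose smallest p with 4 hearts against 4 is 0.0286. Casq1 to Casq2 and Ryr2 to Atp2a2 were added to the ratios set together with the gene list. The ratio of phospholamban to its pump, Pln to Atp2a2, was 0.954, 0.810, 0.828 and 1.59 in P1 and 1.32, 0.986, 0.936 and 0.886 in P7. The stages overlapped. Its mean ± SD over 4 hearts was 1.05 ± 0.37 in P1 and 1.03 ± 0.20 in P7, with a log2 difference of 0.02 (exact permutation p = 0.943, and 0.943 adjusted over the 4 ratios). Under GC correction the log2 difference was 0.21 (exact permutation p = 0.486). P1 replicate 4 stood apart as the only P1 heart with more Pln than Atp2a2.

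The ratio of the pump to the exchanger, Atp2a2 to Slc8a1, was 4.75, 4.55, 4.84 and 1.87 in P1 and 9.52, 10.95, 6.72 and 7.48 in P7. All P7 hearts were above all P1 hearts, and 3 of the P1 hearts were almost equal. Its mean ± SD over 4 hearts was 4.00 ± 1.43 in P1 and 8.67 ± 1.93 in P7, and the mean log2 ratio was higher by 1.19, or 2.28-fold (exact permutation p = 0.0286, the smallest possible, and 0.0571 adjusted with Benjamini-Hochberg over the 4 ratios). Without P1 replicate 4 the log2 difference was 0.85, and under GC correction it was 1.00. Neither gene was called by itself, Atp2a2 being higher and Slc8a1 lower in all P7 hearts.

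The ratio of the calsequestrins, Casq1 to Casq2, was 0.0783, 0.130, 0.192 and 0.109 in P1 and 0.0507, 0.0370, 0.0653 and 0.0536 in P7. All P7 hearts were below all P1 hearts, so Casq1 was also lower relative to its cardiac paralog. Its mean ± SD over 4 hearts was 0.127 ± 0.048 in P1 and 0.0516 ± 0.0117 in P7, and it was 2.38-fold lower in P7 by the mean log2 ratio, a difference of -1.25 (exact permutation p = 0.0286, and 0.0571 adjusted over the 4 ratios). The ratio of release channel to pump, Ryr2 to Atp2a2, was 0.0469, 0.0480, 0.0376 and 0.0996 in P1 and 0.0466, 0.0311, 0.0417 and 0.0354 in P7. Its hearts overlapped, and the log2 difference was -0.49 (exact permutation p = 0.143, and 0.190 adjusted over the 4 ratios).

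**Figure D3:**
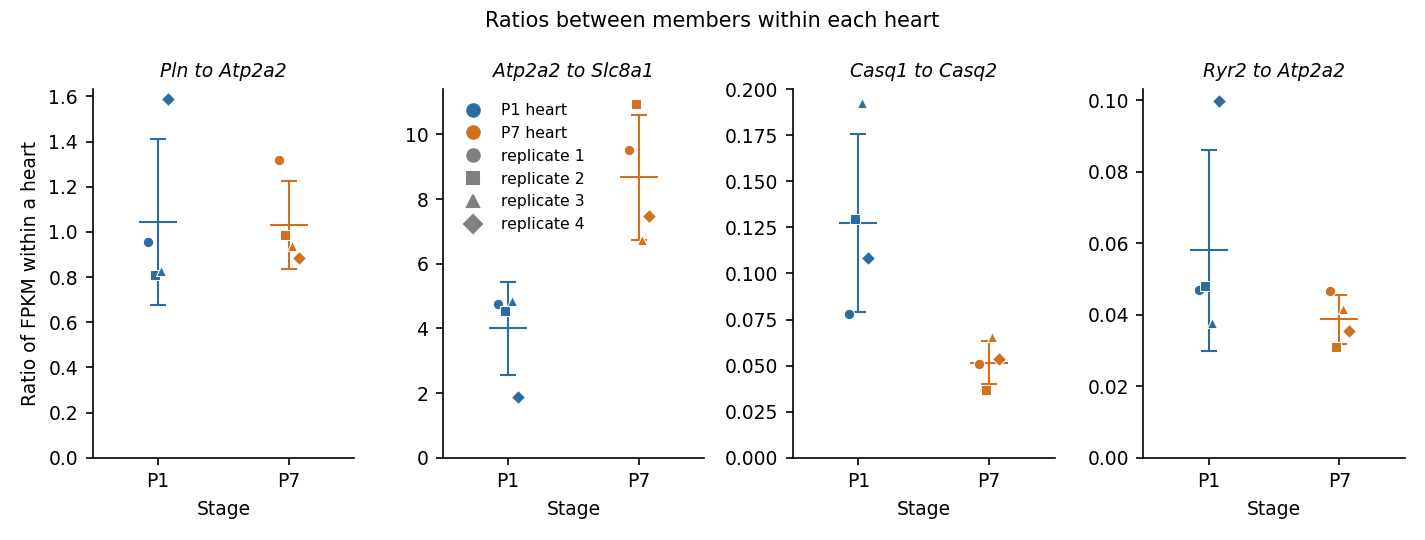
The 4 ratios of FPKM within each heart, 1 panel per ratio with its own linear axis from 0, P1 in blue and P7 in orange, with the mean as a line and the SD over 4 hearts as a bar. Atp2a2 to Slc8a1 separates the stages upwards and Casq1 to Casq2 downwards, while Pln to Atp2a2 and Ryr2 to Atp2a2 overlap, with P1 replicate 4 (diamond) away from the other P1 hearts in all but Casq1 to Casq2.

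As shares of the summed FPKM of the 10 genes in a heart, Atp2a2 and Pln together made up most of the total at both stages. Atp2a2 held on average 38.8% in P1 and 42.2% in P7, and Pln 38.3% and 43.1%. The share of Slc8a1 ran from 8.59% to 14.3% in P1 and from 3.99% to 6.34% in P7, that of Casq2 5.64% to 9.90% and 3.29% to 5.57%, and that of Casq1 0.565% to 1.08% and 0.167% to 0.364%. The share of Hrc ran from 0.215% to 0.525% in P1 and from 0.537% to 0.860% in P7, and that of Bin1 from 0.0415% to 0.0715% and from 0.106% to 0.158%. The shares of Slc8a1, Casq2 and Casq1 were thus lower and those of Hrc and Bin1 higher in every P7 heart. The gap was narrow for Casq2 and Hrc, and the shares of the other 5 genes overlapped. Because Atp2a2 and Pln made up most of each sum, the share of another gene mainly sets it against Atp2a2 and Pln. How often other annotated loci would separate the stages on this scale was not tested.

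The label of the tissue was checked with marker genes. All 10 cardiomyocyte markers were present, with a summed FPKM of 24323 to 41901 in P1 and 35255 to 55249 in P7. The mean log2 FPKM of these markers was higher in P7 by 0.48, and its hearts overlapped. Summed markers of fibroblasts (859 to 1759.9 in P1, 1851 to 2338 in P7) and leukocytes (29.3 to 35.6, 54.4 to 77.5) were higher in every P7 heart. Singly, 5 of the 8 fibroblast and 3 of the 7 leukocyte markers were higher in every P7 heart, beside 17.3% of annotated loci. The others of these 2 lists overlapped, and Postn had a lower mean in P7 (344 in P1, 293 in P7). The sums for endothelium, smooth muscle, atria and red cells overlapped. Single markers in these overlapping sums went both ways. Nppa, Acta2 and Emcn were lower in every P7 heart, Sln, Cdh5 and Tie1 were higher, and the rest overlapped. The sum of 4 adipocyte markers (8.30 to 16.2 in P1, 20.6 to 39.3 in P7) was higher in every P7 heart through Cidea (8.22 to 15.5, 20.6 to 24.8), while Adipoq, Ucp1 and Plin1 overlapped between stages and were at 0 in P7 replicate 1. The brown fat gene Ucp1 was at 3.08 and 10.3 FPKM in P7 replicates 2 and 4 and below 1 in the other hearts. Without these 2 hearts limma called none of the 10 genes, beside 337 of 17741 annotated loci. Of the 10, 4 had an unadjusted p under 0.05 by limma. The limma adjusted p was 0.0684 for Casq1, 0.0602 for Bin1, 0.0622 for Hrc and 0.0998 for Jph2. Their log2 fold changes were -1.42, 1.13, 1.49 and 1.34 in this order, against -1.61, 1.10, 1.20 and 1.23 with all 8 hearts. The part of other cell types in the results was not tested.

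Set against the mean of the 10 cardiomyocyte markers in the same heart, Casq1 was lower in P7 (log2 difference -2.18), as were Slc8a1 (-1.31), Casq2 (-0.92) and Ryr2 (-0.62), with every P7 heart below every P1 heart. Bin1 (0.89), Jph2 (0.78) and Hrc (0.77) were above in every P7 heart. Trdn (-0.46), Atp2a2 (-0.12) and Pln (-0.10) overlapped. For Trdn, Atp2a2 and Pln the sign is thus opposite to that of the FPKM. Stages did not overlap for 7 of the 10 genes, beside 27.1% of annotated loci (8.02% with P7 above and 19.1% with P7 below). Among the 10 markers, Mb was itself called higher (log2 fold change 1.45, limma adjusted p = 0.0141). Myl3 (0.97), Tnni3 (0.87) and Tnnt2 (0.76) came next, and the other markers ran from -0.26 to 0.31. Values on this scale therefore depend on which markers are used. This scale was chosen after the data had been seen, and no p is given for it.

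**Figure D4:**
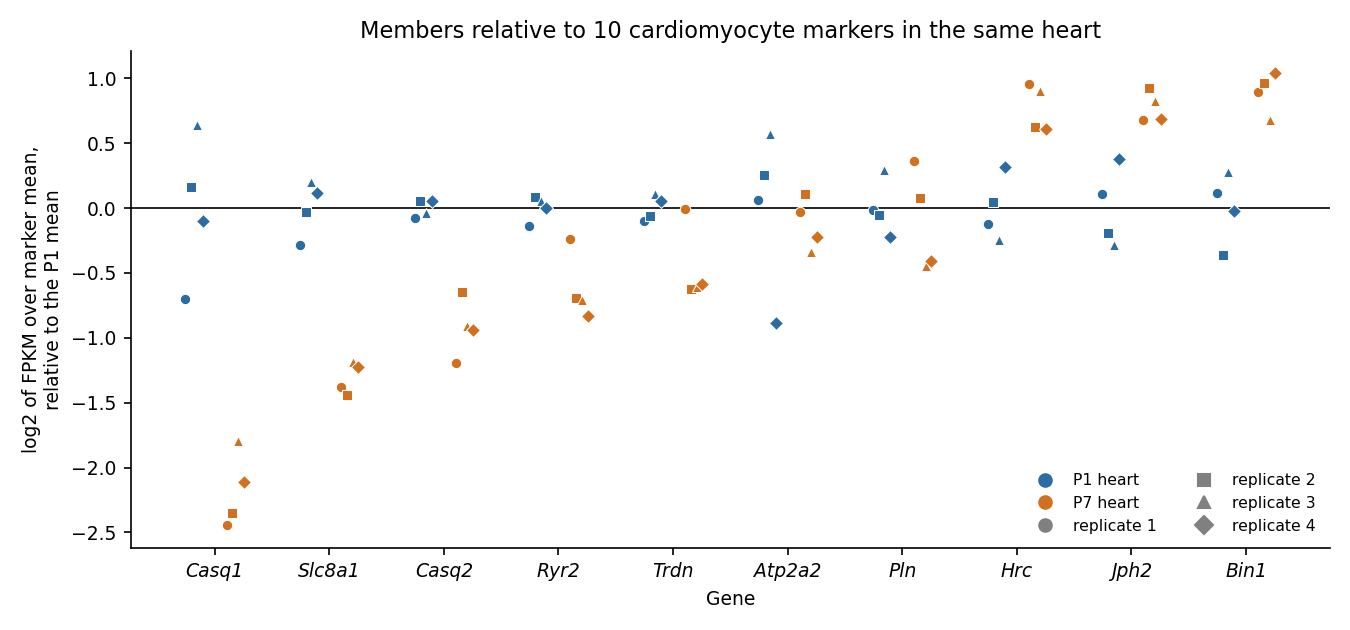
Log2 FPKM of each gene minus the mean log2 FPKM of 10 cardiomyocyte markers in the same heart, shown relative to the P1 mean of the gene, with P1 hearts in blue and P7 hearts in orange. Casq1, Slc8a1, Casq2 and Ryr2 lie below the P1 hearts in all P7 hearts, Hrc, Jph2 and Bin1 above, and Trdn, Atp2a2 and Pln overlap.

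Lists of 61 other genes of calcium handling were read in the same fit. Of these 59 had a locus and 50 were tested. By limma 6 were higher and 1 was lower in P7, beside 7.74% and 0.401% of annotated loci. The log2 fold change was positive in 42 and negative in 8, beside 12147 positive and 5813 negative among the 17960 annotated loci. Its median was 0.37, beside 0.19 for all annotated loci. Hearts did not overlap in 15 of the 50 with P7 above and in 1 with P7 below, beside 17.3% and 2.69% of annotated loci. After GC correction 0 of the 50 were called, beside 408 of 17960 annotated loci, and 19 of the 50 had an unadjusted p under 0.05 in limma. Without 1 heart 0 to 11 were called, beside 167 of 17856 to 2835 of 17671 annotated loci. The count was 0 when replicate 2 of P1, replicate 1 of P7 or replicate 3 of P7 was left out, with 15, 16 and 16 at an unadjusted p under 0.05, and 1 without P1 replicate 3. It was 3 without P1 replicate 1 or P7 replicate 4, and 11 without P1 replicate 4.

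Among the 13 tested genes of release channels and the proteins bound to them, 3 were called. Fkbp1b, which encodes calstabin 2, the immunophilin bound to Ryr2, rose from 4.77 ± 0.79 to 10.4 ± 1.66 FPKM, a log2 fold change of 0.98 (SD, n = 4 each, limma adjusted p = 0.0197). S100a1, a calcium sensor that binds both Ryr2 and SERCA2, rose from 272 ± 43.3 to 544.5 ± 152, also by 0.98 (SD, n = 4 each, limma adjusted p = 0.0390). Ryr3, a minor ryanodine receptor isoform, fell from 4.04 ± 0.59 to 2.13 ± 0.19, a log2 fold change of -0.68 (SD, n = 4 each, limma adjusted p = 0.0494). The skeletal channel Ryr1 was near 0, with means of 0.0187 in P1 and 0.0110 in P7, and was not tested. Asph, whose locus also encodes junctin, was at 119.9 and 136 with overlapping hearts (log2 fold change 0.18).

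Of the 8 tested genes of reuptake and storage 1 was called. Mrln, which encodes myoregulin, a small peptide that inhibits SERCA, was at 0 to 0.337 FPKM in P1 and 0.614 to 1.60 in P7 (log2 fold change 0.88, limma adjusted p = 0.0443), levels close to the filter. Sln, which encodes the SERCA inhibitor sarcolipin, was higher in every P7 heart (249 ± 70.1 against 448 ± 148, SD, n = 4 each) with a log2 fold change of 0.84, and was not called (limma adjusted p = 0.129). Calr, the calcium-binding chaperone calreticulin, had 128 ± 34.4 and 228 ± 53.2 (SD, n = 4 each), and was not called either (log2 fold change 0.84, limma adjusted p = 0.0863). Atp2a3 was low, at 0.827 and 1.57 (log2 fold change 0.49), and Atp2a1, the skeletal pump, was at 0.299 and 0.241 and was not tested. Tmem38a (0.54) and Srl (-0.14) overlapped between stages.

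In the junction and T-tubule list, 2 of the 6 tested genes were called. Tcap, which encodes telethonin, a Z-disc protein next to T-tubules, rose from 51.8 ± 21.5 to 150.1 ± 52.2 FPKM, a log2 fold change of 1.54 (SD, n = 4 each, limma adjusted p = 0.0197). Dnm2, the membrane-cutting GTPase dynamin 2, rose from 14.0 ± 5.96 to 28.3 ± 6.49, by 1.01 (SD, n = 4 each, limma adjusted p = 0.0485), although the hearts overlapped through P1 replicate 4. Jph1, the paralog of Jph2, was at 4.90 ± 0.37 and 5.84 ± 1.41 (SD, n = 4 each), with overlap and a log2 fold change of 0.19.

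Of the 10 tested genes of surface entry and extrusion, Cacna1g, a T-type calcium channel, was called. It rose from 9.59 ± 3.59 to 22.9 ± 2.67, a log2 fold change of 1.23 (SD, n = 4 each, limma adjusted p = 0.0201). Cacna1c, the pore of the L-type channel that faces Ryr2, was at 31.0 ± 12.3 and 43.0 ± 6.56 (SD, n = 4 each) with overlapping hearts (log2 fold change 0.52, limma adjusted p = 0.295). Neither the 7 genes of phosphorylation of phospholamban and the ryanodine receptor nor the 6 tested genes of mitochondrial calcium held a call by limma. All of these 13 had a positive log2 fold change, beside 12147 of 17960 annotated loci. The medians of the lists were 0.45 and 0.45, beside 0.19 for all annotated loci.

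**Figure D5:**
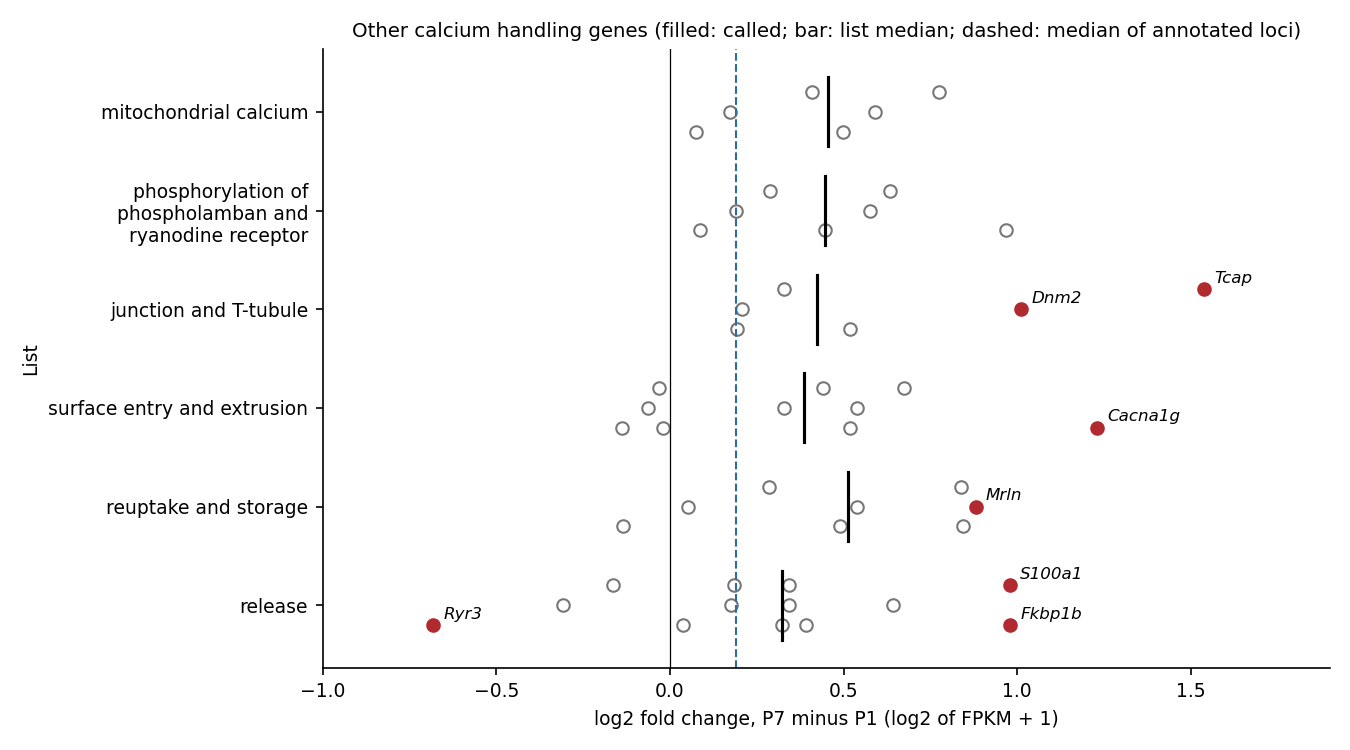
Log2 fold change of P7 minus P1 (log2 of FPKM + 1) for 50 other calcium handling genes in 6 lists, 1 circle per gene, filled and named where called. The short bars are list medians, all to the right of the dashed line at 0.19, the median of all tested annotated loci.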

How the data were processed

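RNA was extracted from each of 8 hearts, depleted of ribosomal RNA and sequenced as paired ends. Reads were aligned by the provider to GRCm38 (annotation of Ensembl release 70), and the authors deposited FPKM per locus, normalized to transcript length and mapped fragments. The aligner and the use of strand are not given in the sources used here. The files hold no counts per locus, and the library totals of the study were not used here, so precision rests on the spread between mice. Groups came from the sample titles, and each library came from a different mouse.

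Loci reaching 1 FPKM in any heart were fitted as log2(FPKM + 1) with limma 3.58.1 in R 4.3.3 (lmFit, eBayes with trend), with all 8 hearts, no covariates and Benjamini-Hochberg adjustment over all 43172 loci. Ratios were compared with exact two-sided permutation tests over 70 assignments. Python 3.11.15 (scipy 1.17.1, numpy 2.4.6, pandas 2.3.3) made the tables, and the fit was tested on simulated data. The alternatives were a pseudocount of 0.1, other filters, median-ratio scaling, quantile normalization, sample weights, eBayes without trend, a replicate block, GC correction (lowess, span 0.3, on GENCODE M21 transcripts, known for 85.9% of tested annotated loci) and leaving out hearts. All 10 genes were named, with, of the wider lists, every called gene and 12 paralogs and partners of the 10 genes, of which Ryr3 and Fkbp1b were also called. The genes and lists were chosen with earlier results of these data known. Positions count from 1.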

Additional observations from a re-analysis of the deposited data

Results flagged for a closer look

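In 62 groups of 4 hearts (the values of the genes and ratios named above at 1 stage), the heart farthest from the others was compared with the range of the group, and 7 groups had a heart whose gap to its nearest neighbour exceeded Dixon's 95% critical share of the range for 4 samples. Chance gives about 3.1 such groups at 1 in 20.

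P1 replicate 4 was the distant heart in 5 of the 7. Its Atp2a2 level was 1324 FPKM against 1908 to 2023 in the other P1 hearts (gap of 0.836 of the range), and its Slc8a1 level was 708.3 FPKM against 394 to 444.3 (0.840). The ratio of Atp2a2 to Slc8a1 in this heart was therefore 1.87 against 4.55 to 4.84 (0.902), and that of Ryr2 to Atp2a2 was 0.0996 against 0.0376 to 0.0480 (0.833). Dnm2 was at 22.9 FPKM in this heart against 10.5 to 11.9 (0.891). Of the P7 hearts, replicate 3 had S100a1 at 771 FPKM against 445 to 484 (0.881), and replicate 1 had Sln at 668 FPKM against 364 to 390.0 (0.916). The causes of these differences were not tested.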

How the results depend on the processing

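Of 190 recalculated and tested log2 fold changes of the 10 genes, 149 kept their direction and their side of the threshold, 30 lost a call, 3 gained one and 8 changed in sign. Only the 4 called genes could lose a call. Over 19 tested alternatives for each gene, the losses were 12 for Jph2, 11 for Hrc, 5 for Bin1 and 2 for Casq1. Of the 10 values relative to cardiomyocyte markers, which have no test, 3 (Trdn, Atp2a2 and Pln) had the opposite sign. With no filter limma called 2 of the 10 genes, 3 of the wider lists and 620 annotated loci, against 4, 7 and 1462 as reported. A filter of 1 FPKM in every heart called 12 of the wider lists and 2573 annotated loci, and sample weights 2951 annotated loci. Without the trend the counts were 2, 4 and 941. With GC correction they were 1, 0 (19 at an unadjusted p under 0.05) and 408, and with GC correction and the replicate block 1, 0 (18) and 385. Without P7 replicates 2 and 4, an alternative chosen after seeing the data, they were 0 (4 at an unadjusted p under 0.05), 1 and 337. With each heart left out in turn they were 0 to 4 of the 10 genes, 0 to 11 of the wider lists and 167 (without P1 replicate 2) to 2835 (without P1 replicate 4) annotated loci. The causes were not tested.

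Trdn reversed under median-ratio scaling (-0.21) and quantile normalization (-0.21), and ran from -0.0905 to 0.20 with 1 heart left out. Ryr2 ran from -0.27 to 0.0193 with 1 heart left out and was at 0.15 without P7 replicates 2 and 4. The log2 difference of the Pln to Atp2a2 ratio ran from -0.10 to 0.24 with 1 heart left out. That of Atp2a2 to Slc8a1 ran from 0.85 to 1.31, that of Casq1 to Casq2 from -1.46 to -1.03 and that of Ryr2 to Atp2a2 from -0.67 to -0.20. With 3 hearts against 4 the exact permutation test cannot go below 0.0571.

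Hearts with the same replicate number did not deviate together (correlations of -0.019, 0.122, -0.102 and -0.027), and 1 of 4 P1 hearts matched its own number best. With the replicate block limma called 4 of the 10 genes, 4 of the wider lists and 1052 annotated loci. With the same numbers as pairs, the log2 differences of 1.19 for Atp2a2 to Slc8a1 and -1.25 for Casq1 to Casq2 each had an exact p of 0.125, the smallest that 4 pairs allow.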
